A study of Cyanidioschyzon merolae with 75 samples.

Results

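The 155 genes described here had a wide spread of RNA level over 50 h in the red alga Cyanidioschyzon merolae and followed no simple daily wave. They were 155 of the 4576 genes on the array. Genes were chosen by their measured ratios. A gene was included when its highest minus its lowest log2 ratio was at least 2 and a 24 h wave explained less than 0.25 of its variance. That share of variance is called R2, and the wave was a mean with a cosine and a sine of 24 h. Of all genes, 495 (10.8%) reached that range and 65.6% had that low an R2, and the 155 (3.39%) met both limits. The values that chose the genes are the values reported below, so these are descriptions and no test was made. No filter on low values was applied, and each of the 155 genes was measured at all 25 times.

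The cells were strain 10D, cultured with alternating light and dark until they divided in step, and sampled every 2 h from 2 to 50 h. All samples share the strain and the treatment, and they differ only in sampling time. Each array set amplified RNA of 1 sampling time, labelled Cy3, beside a mixture of the samples, labelled Cy5, so a log2 ratio above 0 means more RNA than in the pool relative to the middle gene of that array. Of the 3 deposited series of 25 arrays, series 3 was used; its intensities equalled the mean of series 1 and 2 at 100% of probes, within 0.01%, at the 24 times where all 3 could be compared. Series 3 is therefore no replicate of series 1 and 2. The sample titles do not say whether series 1 and 2 came from separate cultures. Each time was treated as 1 sample, and no value below carries a replicate error. The RNA came from whole cultures, in which fewer cells with a transcript and less of it per cell cannot be told apart. The labels do not say at which hours the light was on.

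C. merolae is a unicellular alga of hot acidic springs whose small cell holds one nucleus, one mitochondrion and one plastid. Under alternating light and dark the cells grow, and then the plastid, the mitochondrion and the nucleus divide in a fixed order. In a synchronous culture a gene tied to the cell cycle or to the day is expected to return at the same phase of the next day. A gene with a large range and a low 24 h R2 may instead move at isolated times, at another spacing, or between the first day and the second. A short pulse repeated each day can also have a low R2, since only a cosine and a sine of 24 h were fitted. Neither the files nor the reference gene table pair the locus tags of these genes with a product or a symbol, so genes are given by tag and no role is named.

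Array medians of Cy5 intensity ran from 552 to 14416 over the 25 arrays of series 3, and those of Cy3 from 1613.81 to 16225. The spread of log2 ratios over all genes was an SD of 0.23 to 0.62 per array. The widest arrays were 46 h, at 0.62, and 48 h, at 0.55, and the next was 8 h, at 0.47.

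The range of the 155 genes ran from 2.00 to 4.84 with a median of 2.34, against a median of 0.92 over all genes. R2 of the 24 h wave had a median of 0.14. The genes just inside the limit of the range were CMQ123C at 2.000, CMM224C at 2.003 and CMD108C at 2.004, and those just outside were CMJ100C at 1.997, CMB060C at 1.996 and CMO306C at 1.993. At the limit of R2, CMT063C and CMM040C, both just under 0.25, and CML305C at 0.247 lay inside, and CMK058C at 0.252, CMI140C at 0.254 and CMR412C at 0.256 lay outside. The limits thus cut through a continuous spread of values.

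Most of these genes reached their lowest ratio on 1 of 2 neighbouring arrays near the end of the course. The lowest value fell at 46 h in 96 of the 155 genes (61.9%), while 17.2% of all genes were lowest there. It fell at 48 h in 31 (20%), against 11.4% of all genes. Together 127 genes (81.9%) were lowest at 46 or 48 h, against 28.6% of all genes. Of the 340 genes with as wide a range and an R2 of at least 0.25, 196 (57.6%) were also lowest at these times. The array of 8 h, where 16.7% of all genes were lowest, held the lowest value of 7 of the 155.

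Highest values were more scattered. They fell at 24 h in 35 genes (22.6%), against 6.36% of all genes, at 10 h in 17, against 3.21%, and at 4 h in 16, against 2.71%. At 8 h 12 genes were highest, at 48 h 10 and at 46 h 1, where the shares of all genes were 12.3%, 15.2% and 7.08%. The highest or the lowest value fell at 8, 46 or 48 h in 138 genes (89%), against 70.5% of all genes. In 17 of the 155 genes neither the highest nor the lowest value fell at 8, 46 or 48 h, and in 19 (12.3%) both did, against 9.35% of all genes.

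**Figure D1:**
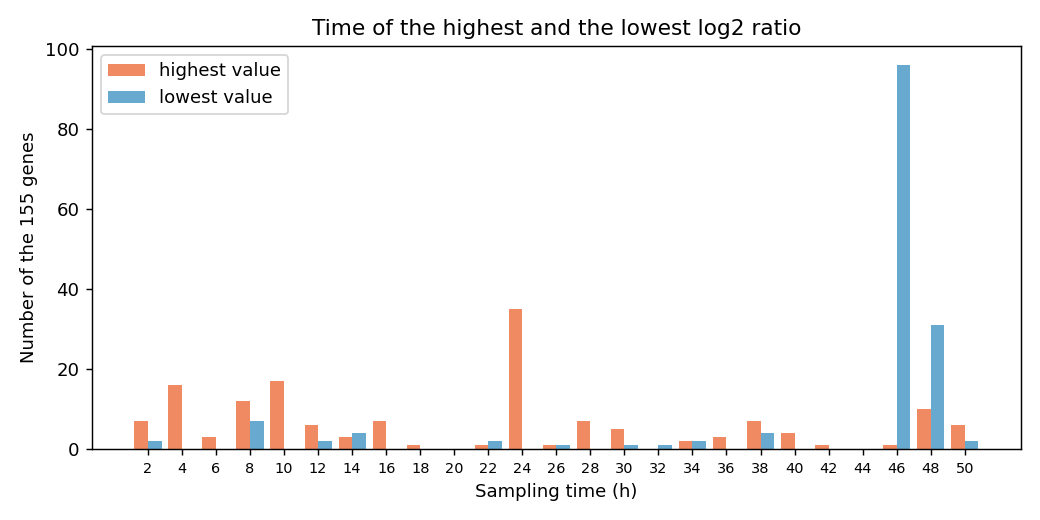
Number of the 155 genes (vertical axis) with their highest (orange) or lowest (blue) log2 ratio at each sampling time in hours (horizontal axis). The bars of lowest values reach 96 at 46 h and 31 at 48 h, and the tallest bar of highest values is 35 at 24 h.

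The median log2 ratio of the 155 genes lay between -0.40 and 0.37 at all times but 46 h, where it was -1.33. At 46 h 149 of the 155 genes were below 0, against 50.1% of all genes, and 105 were below -1, against 11.3%. The median was -0.40 at 44 h, -0.39 at 48 h and -0.13 at 50 h, so the median dipped at 1 sampling time. From 44 to 46 h 138 genes were lower, against 54.7% of all genes, with a median step of -0.91, and from 46 to 48 h the median step was 1.05 upward. The time 24 h earlier did not show the dip: from 22 to 46 h the median difference was -1.15 and 137 genes were lower at 46 h, against 55% of all genes. The 340 genes with a wide range and an R2 of at least 0.25 were also low at 46 h, in a broader drop, with medians of -0.75 at 44 h, -1.43 at 46 h and -0.95 at 48 h.

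**Figure D2:**
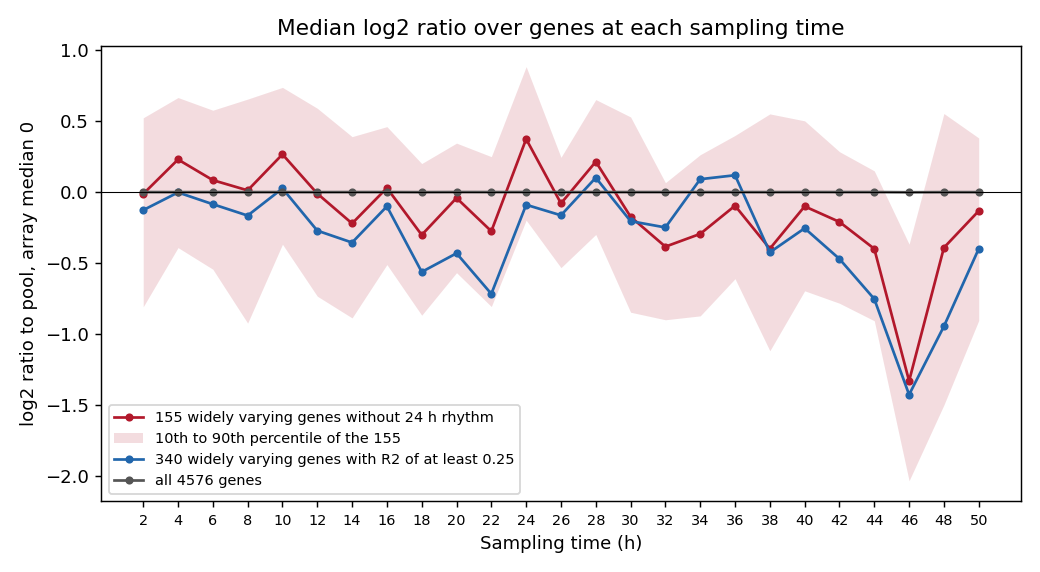
Median log2 ratio to the pool (vertical axis, array median set to 0) at each sampling time in hours (horizontal axis) for the 155 genes (red, with the 10th to 90th percentile shaded), the 340 wide genes with R2 of at least 0.25 (blue) and all genes (grey, 0 by construction). The red line falls to -1.33 at 46 h and stays between -0.40 and 0.37 elsewhere.

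The genes lowest at 46 h and those lowest at 48 h differed in the shape of the drop. The 96 genes lowest at 46 h had medians of -0.42 at 44 h, -1.57 at 46 h and -0.10 at 48 h. Only 13 of these 96 were also below -1 at 48 h, and 40 were above 0 there. The 31 genes lowest at 48 h had medians of -0.66 at 46 h, -1.50 at 48 h and -0.82 at 50 h. Their median was also -0.66 at 18 h. After a loess curve was fitted within each array, as described below, their medians were 0.33 at 46 h, -1.24 at 48 h and -0.70 at 50 h. The low values at 48 and 50 h thus remained after loess, and that at 46 h did not. These groups were made from the same values, so the difference is a description of them.

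The departure of each gene from its own median over the 25 times showed which array carried its range. The largest departure was at 46 h in 89 genes (57.4%), against 18.4% of all genes, and in all 89 it was downward. It was at 48 h in 20, of which 19 were downward, and at 8 h in 5, against 18.4% and 15.7% of all genes. The 3 arrays of 8, 46 and 48 h together held the largest departure of 114 genes (73.5%), against 52.5% of all genes. The array of 8 h therefore carried few of these ranges, and the array of 46 h most.

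Leaving arrays out gave the same order. With each gene's own time of largest departure left out, 43 of the 155 genes (27.7%) kept a range of at least 2, against 5.92% of all genes. Of the 340 wide genes with an R2 of at least 0.25, 228 (67.1%) kept it. With 46 h left out, 81 of the 155 genes still had a range of at least 2, with 48 h left out 129, and with 8 h left out 147. Without 46 and 48 h 54 remained, and without all 3 arrays 48 (31%) remained, while 238 of the 340 wide genes with the higher R2 (70%) remained and 286 of all genes (6.25%) had such a range. The median range of the 155 fell from 2.34 to 1.76 without the 3 arrays, so the ranges shrank and did not vanish. In 37 genes (23.9%) R2 rose to at least 0.25 when the 3 arrays were left out, while 37.8% of all genes had such an R2 there. The rule applied to the other 22 times found 40 genes (0.874% of all), and 37 of them were among the 155.

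**Figure D3:**
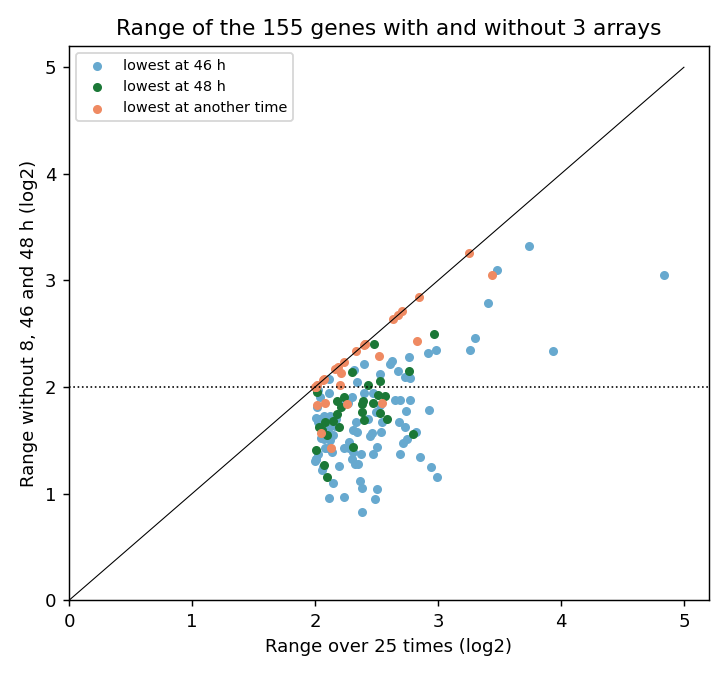
Range of each of the 155 genes over 25 times (horizontal axis, log2) against its range without 8, 46 and 48 h (vertical axis, log2), coloured by the time of the lowest value. Points on the diagonal lost nothing, and 48 points lie on or above the dotted line at 2.

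A stricter reading took the second highest minus the second lowest value of each gene, which no single array can set. This difference was at least 2 in 22 of the 155 genes (14.2%), in 4.55% of all genes, and in 186 of the 340 wide genes with the higher R2 (54.7%). The share of the sum of squares over the 25 times that came from 46 and 48 h was also taken. Its median was 28.8% in the 155 genes and 17.2% over all genes.

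CMT285C, CMT119C and CMH023C had most of their range from 46 h. CMT285C had a lowest ratio of -2.27 at 46 h, a median of -0.01 and a highest of 0.72 at 10 h. Without 8, 46 and 48 h its range fell from 2.99 to 1.15. At 46 h the readings of series 1 and 2 were -2.24 and -2.31, so the low value was in both. CMT119C went from -2.31 at 46 h through a median of -0.12 to 0.63 at 24 h, and its range without the 3 arrays was 1.25. CMH023C went from -1.76 at 46 h through a median of 0.14 to 0.62 at 12 h, and its range without them was 0.83, the smallest of the 155. The median of this quantity over all genes was 0.76, so these genes still varied more than a typical gene, and 1 array took them past the limit.

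The dip at 46 h went together with how bright a gene was. Genes were placed in 10 equal groups by their median Cy5 level over the arrays, which is their level in the pool. In the brightest group lay 100 of the 155 genes (64.5%), making up 21.8% of that group, and 146 (94.2%) lay in the brightest 3 groups. Only 3 of the 155 lay in the 5 dimmest groups. The 340 wide genes with the higher R2 were nearly as bright. Of them 187 (55%) lay in the brightest group and 305 (89.7%) in the brightest 3. Over all 4576 genes the median log2 ratio at 46 h went from 0.14 in the dimmest group to -1.24 in the brightest, and at 48 h from 0.48 to -0.52. At 24 h, the most frequent time of highest values, it went the other way, from -0.15 to 0.23.

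Across the 4576 genes the log2 ratio correlated with the pool level at r = -0.72 at 46 h and at r = -0.53 at 48 h. At 8 h r was -0.34, and on the other 22 arrays r lay between -0.58, at 32 h, and 0.24. These correlations are across genes, which share each array, and the pool level also enters the ratio, so they carry no p. Among the 458 genes of the brightest group, the 100 that belong to the 155 had a median of -1.49 at 46 h, with 99 of them below 0. The other 358 had a median of -1.15, with 342 below 0. Genes as bright as these were thus low at 46 h whether or not they met the rule, and 64% of the brightest group were lowest at 46 or 48 h, against 81.9% of the 155. The part of brightness in the dip was not tested.

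**Figure D4:**
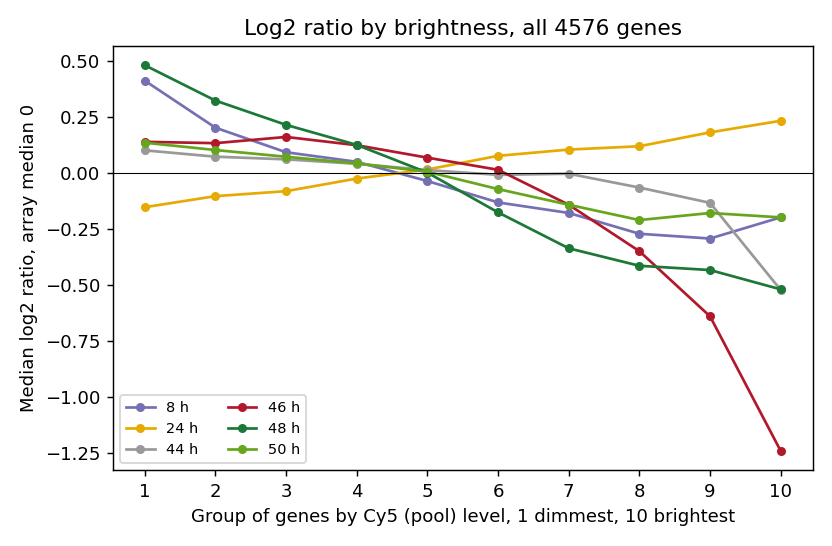
Median log2 ratio over genes (vertical axis, array median set to 0) in 10 equal groups of all 4576 genes ordered by median Cy5 level (horizontal axis, dimmest to brightest), for 6 sampling times. The 46 h line falls to -1.24 in the brightest group, the 48 h line runs from 0.48 to -0.52, and the 24 h line rises from -0.15 to 0.23.

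A loess curve fitted within each array removes such a trend with brightness. After it, 55 of the 155 genes (35.5%) kept a range of at least 2. Of the 340 wide genes with the higher R2, 259 (76.2%) kept it, and 7.6% of all genes had it. Both limits were met by 45 of the 155 and by 1.88% of all genes after loess. Without 8, 46 and 48 h, 34 of the 155 (21.9%) had a range of at least 2 after loess. So did 205 of the 340 (60.3%) and 5.42% of all genes. The median of the 155 at 46 h was -0.28 after loess in place of -1.33, and 100 of them were still below 0. The lowest value fell at 46 or 48 h in 63 genes (40.6%) after loess, against 21.9% of all genes. With 1 array per sampling time, the time and the array cannot be told apart.

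The channels were also read apart, each as log2 intensity minus the array median. At the time of the largest departure, the Cy5 level departed further from its own median than the Cy3 level in 59 of the 155 genes (38.1%), against 54.6% of all genes. The Cy5 level, which holds the pool and would be steady on identical arrays, departed by over 1 in 48 genes (31%), against 16.5% of all genes. In the 340 wide genes with the higher R2 these counts were 113 (33.2%) and 110 (32.4%), so such departures were not particular to the 155. In CMC149C at 46 h the Cy3 level was 1.30 lower than its median (-1.30) and the Cy5 level was 2.14 higher. Both channels thus moved in this ratio. Departures were also signed to be positive where they pushed the ratio in its own direction. Their medians over the 155 genes were 0.96 in Cy3 and 0.45 in Cy5, and the 90th percentile in Cy5 was 1.49. The Cy5 part of CMC149C was thus larger than in most of the 155. Over the 25 arrays the SD of the Cy5 level had a median of 0.81 in the 155 genes and 0.46 in all genes, and that of the Cy3 level 0.85 and 0.42. In the 340 wide genes with the higher R2 the medians were 0.77 for Cy5 and 0.90 for Cy3.

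The readings of series 1 and 2 lay close together. They differed by a median of 0.054 at the time of the largest departure, in the 152 genes where that time had both readings, and 100 of the 155 genes were below -1 at 46 h in both. The 1 gene of 152 whose readings differed by over 0.5 was CMK138C, named here after its values were seen. Its ratio at 12 h was 0.25 in series 1 and -3.01 in series 2, with Cy5 intensities of 2415 and 26228 and Cy3 intensities of 3990.51 and 4531.76. Outside 12 h its range was 0.68, and so it was wide by 1 Cy5 reading.

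The 48 genes that kept a range of at least 2 without 8, 46 and 48 h moved at several times. Over the remaining 22 times their highest values fell at 24 h in 10 genes, at 4 and 38 h in 6 each, and at 2 and 28 h in 4 each. Their lowest values fell at 14 and 38 h in 9 each, at 30 h in 5 and at 44 h in 4. Shares of all genes were taken over 25 times, so they are only a rough background. Highest values fell at 24 h in 6.36% of all genes, at 4 h in 2.71%, at 38 h in 5.03%, at 2 h in 1.14% and at 28 h in 3.45%. Lowest values fell at 14 h in 4.28%, at 38 h in 5.79%, at 30 h in 7.50% and at 44 h in 4.85%. Over the 22 times, pairs of these 48 genes correlated with a median r of 0.072 and pairs of the 155 with a median r of 0.23. Over all 25 times the median r for pairs of the 155 was 0.32, and 0.045 after loess. Neighbouring samplings correlated at a median r of 0.54 in the 48 genes, 0.40 in the 155 and 0.26 in all genes, all over 25 times. In the 340 wide genes with the higher R2 this median was 0.60.

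One group of courses was high in the first day and low in the second. The mean of the 12 differences between times 24 h apart, second cycle minus first, was below 0 in 109 of the 155 genes (70.3%), against 47.2% of all genes. Genes lower at 10 or more of the 12 pairs numbered 57 (36.8%), against 10% of all genes and 33% of the brightest group of genes, and genes higher at as many numbered 5 (3.23%), against 5.07%. Without the pairs that hold 8, 46 or 48 h the mean was below 0 in 96 genes (61.9%), against 47.7% of all genes. Over these 9 pairs 42 genes (27.1%) were lower at 8 or 9, against 10.4%, and 10 (6.45%) were higher at as many, against 6.99%. After loess it was below 0 in 93 (60%), against 48.7%.

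CME183C had the largest such difference, with a mean of -1.47, and it was lower in the second cycle at 12 of 12 pairs. Its ratio ran from -2.22 at 46 h through a median of -0.30 to 1.26 at 16 h, was above 0 from 2 to 20 h and was below 0 at all later times but 36 and 50 h. The difference was -1.59 over the 9 pairs without 8, 46 and 48 h and -1.17 after loess. CMC149C, the widest of the 155 with a range of 4.84, ran from 1.39 at 2 h through a median of -0.60 to -3.46 at 46 h. It was between 0.56 and 1.39 from 2 to 12 h and below 0 at every later time, and its range without the 3 arrays was 3.05. Its mean difference was -1.33.

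CMT162C, CMQ293C and CMA114C were lower in the second cycle at 12 of 12 pairs, by means of -1.19, -1.14 and -1.13. CMA114C stayed between -0.24 and 0.73 from 2 to 30 h, dropped to -1.39 at 32 h and lay between -1.87 and -0.61 until 46 h, before it returned to -0.06 at 48 h. CMQ293C followed a like course, at -0.56 at 30 h, -1.03 at 32 h and -1.93 at 46 h. CMT162C fell more slowly, from 1.02 at 4 h to -2.24 at 46 h. In these genes the 46 h value was the floor of a stretch that was already low.

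CMM227C and CMF129C declined late, and CMI197C was low at 30 h and at 46 h. CMM227C was between -0.18 and 0.76 from 2 to 22 h, lay between -2.05 and -0.88 from 38 to 46 h, and reached its highest value, 1.36, at 50 h. CMI197C ran from 0.89 at 4 h through a median of -0.30 to -2.10 at 46 h, with a second low of -1.46 at 30 h. CMF129C ran from 0.95 at 12 h through a median of -0.26 to -2.34 at 46 h, after -1.05 at 42 h and -1.51 at 44 h. All 3 kept a range over 2 without the 3 arrays, and after loess CMF129C had a range of 1.95.

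A smaller group was higher in the second cycle. CMS331C had the largest mean difference upward, 0.78, and was higher at 9 of 12 pairs. It ran from -1.86 at 14 h through a median of -0.27 to 0.81 at 24 h, and it stayed below 0 from 12 to 22 h. CMF144C was higher at 11 of 12 pairs with a mean of 0.70, from -1.53 at 2 h through a median of 0.01 to 0.55 at 48 h. Its range without the 3 arrays was 1.85, below the limit. CMA070C ran from -1.13 at 2 h to 1.07 at 48 h, with a median of -0.26 and a mean difference of 0.51, so both it and CMF144C began low.

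CMJ126C showed a block of low values in the first day with no counterpart in the second. Its ratio was 0.53 at 10 h, lay between -1.79 and -0.86 from 12 to 22 h, and jumped to 1.47 at 24 h. From 36 to 46 h, 24 h after that block, it lay between -0.64 and 0.50. Neither its highest nor its lowest value fell on the 3 arrays, its range was 3.25 with or without them, and it was 2.89 after loess. CMN009C was lowest at 48 h, at -2.35, and highest at 36 h, at 0.62, with a median of -0.45 and other lows of -1.48 at 12 h and -1.88 at 30 h. It was higher in the second cycle at 10 of 12 pairs.

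CMJ065C rose in both cycles, to unequal heights. It was highest at 38 h, at 1.56, and stayed above 0.4 from 36 to 42 h, while in the first cycle it went from -1.76 at 14 h to 0.24 at 18 h. Its lowest value was -2.18 at 46 h and its median -0.81. The range without the 3 arrays was 3.32, the widest of the 155, and 3.56 after loess. Its high points at 18 and 38 h were 20 h apart.

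CMT251C and CML063C each rose in both cycles at a spacing other than 24 h. CMT251C peaked at 14 h, at 0.85, and at 34 h, at 0.82, with lows of -1.68 at 8 h and -1.41 at 38 h and a median of -0.46. CML063C peaked at 16 h, at 1.03, and at 36 h, at 0.90, with lows of -2.41 at 8 h and -2.03 at 46 h and a median of -0.18. In both the peaks were 20 h apart. The wave of 24 h had an R2 of 0.03 in CMT251C and 0.21 in CML063C. Shorter waves had a higher one in CMT251C, with 0.39 at 16 h, 0.59 at 18 h and 0.44 at 20 h. In CML063C R2 was 0.18 at 16 h, 0.42 at 18 h and 0.41 at 20 h.

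**Figure D5:**
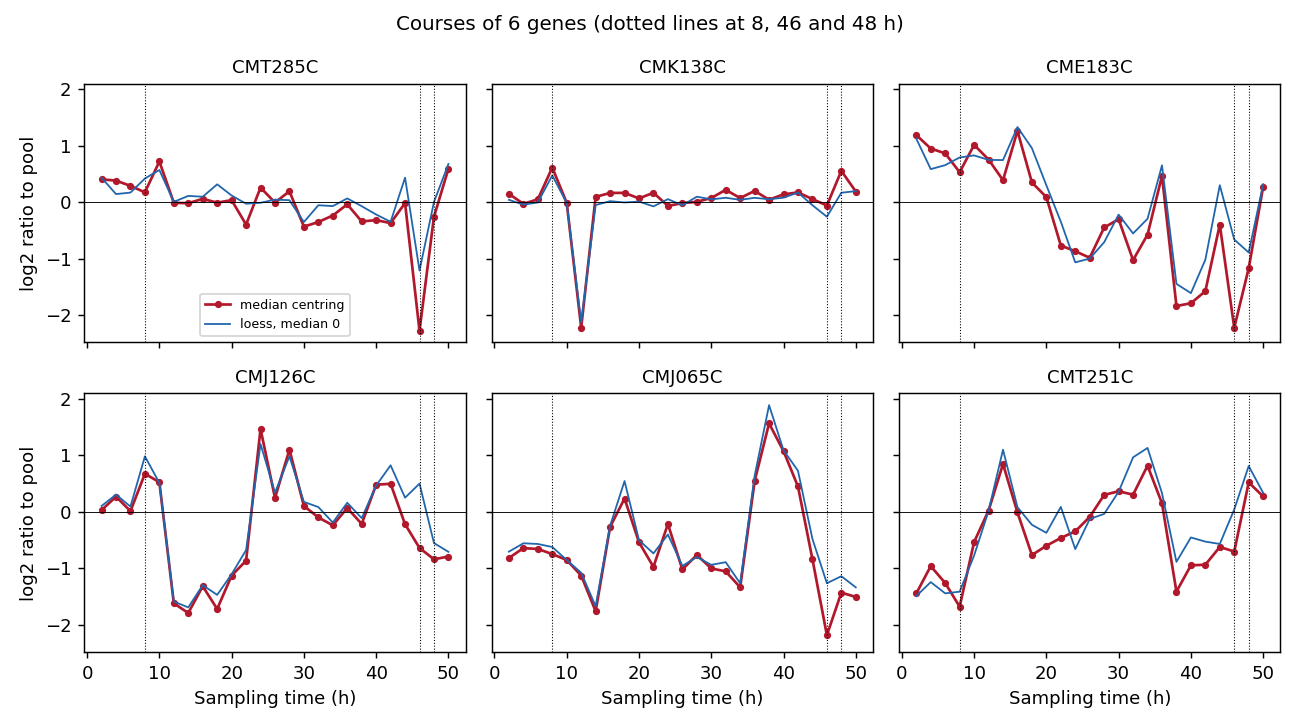
Log2 ratio to the pool (vertical axes) over sampling time in hours (horizontal axes) in 6 of the 155 genes, with array medians set to 0 (red) and after loess (blue); dotted lines mark 8, 46 and 48 h. CMT285C drops at 46 h only and CMK138C at 12 h only, CME183C falls in the second cycle, CMJ126C is low from 12 to 22 h, CMJ065C is highest at 38 h, and CMT251C peaks at 14 and 34 h.

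Over the 155 genes, waves shorter than 24 h gave no single pattern. A wave of 20 h reached an R2 of 0.25 in 15 of them (9.68%), against 18% of all genes. A wave of 18 h reached it in 22 (14.2%), against 9.68% of all genes, and a wave of 16 h in 34 (21.9%), against 7.21%. A wave of 48 h, which in a 50 h course mostly describes 1 slow change, reached it in 68 (43.9%), against 22.6% of all genes. Waves of 12 h had a median R2 of 0.055. Since the 155 were chosen for a low R2 at 24 h, shares at neighbouring periods are lowered by that choice.

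CMT271C, CMC145C and CMM275C complete the 15 widest ranges. CMT271C ran from -2.35 at 46 h through a median of 0.17 to 1.59 at 24 h, a range of 3.94 that was 2.34 without the 3 arrays and 1.91 after loess. CMC145C had the same times of extremes, -1.87 at 46 h and 1.05 at 24 h, with a median of -0.03 and a range of 1.79 without the 3 arrays. CMM275C was lowest at 46 h, at -1.27, and highest at 50 h, at 1.64, with a median of -0.04. In the first pair the extremes lay at 24 h, where bright genes as a whole were high, and at 46 h, where they were low.

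Few of the 155 genes lay beside each other. Among them 3 pairs had neighbouring tags in the reference gene table. CML304C and CML305C correlated over the 25 times at r = 0.61, and at 0.82 without 8, 46 and 48 h. CMH023C and CMH024C correlated at 0.53, and at -0.28 without the 3 arrays, where their ranges were 0.83 and 1.27. CML047C and CML049C correlated at -0.007, the former being lowest at 38 h, at -1.59, and the latter at 46 h, at -1.52. The median over 3925 measured neighbouring pairs was 0.087. By the letters of the tag, which name the chromosome, CMM held 19 of its 239 genes (7.95%), CMJ 13 of 230 (5.65%) and CMB 1 of 119 (0.84%), against 3.39% of all genes.

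The courses that met both limits without the 3 arrays, both with and without loess, were few. Other normalisations were not part of this choice. Both limits were still met by 37 of the 155 genes without 8, 46 and 48 h, by 20 of them without those arrays after loess, and by 19 under both settings. These 19 include CMC149C, CME183C, CMM227C, CMJ126C, CMI197C, CMN009C, CMS331C, CMT251C and CMA070C of the genes described above, and also CMK138C with its 1 discordant reading. Among the others, CMC021C, named after its values were seen, ran from 1.27 at 2 h through a median of -0.45 to -1.57 at 32 h. Its range was 2.85 with or without the 3 arrays and 2.54 after loess. Its Cy5 level was unsteady, at 0.55 at 36 h, 0.47 at 44 h and 0.94 at 46 h, against 2.85 at 2 h and 3.72 at 32 h. In CMT251C the Cy5 level was 1.01 at 44 h and 1.86 at 46 h, against 4.53 at 8 h and 3.61 at 14 h. Other genes of this list also had a moving Cy5 level. It ran from 1.65 at 26 h to 5.94 at 44 h in CMC149C. In CME183C it ran from 1.72 at 24 h to 5.47 at 34 h, and in CMM227C only from 1.35 at 26 h to 3.48 at 44 h. A steady Cy5 level was not among the limits.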

How the data were processed

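Amplified RNA was labelled, per the labels' protocols, with Cy3 (sampling time) or Cy5 (mixture of samples). The deposited files hold raw intensity values of both channels, intensities scaled by the authors with their ratio, and log2 values. No source used here gives the scanner, the background handling or the genome build. Within 0.01, the log2 values deposited by the authors equal log2 of raw Cy3 over Cy5 less each probe's average and an array shift, at 92.8 to 99.3% of probes; their medians run from -0.30 at 28 h to 0.65 at 46 h. At 48 h in series 3 the sample's column repeats 46 h, so the series table was used as that alternative. Intensities were used on 73 of 75 arrays; series 1 and 2 at 14 h hold log2 values only.

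From raw intensities, log2 of Cy3 over Cy5 minus the array median was averaged over the probes of a gene (Python 3.11.15, numpy 2.4.6, pandas 2.3.3). All 155 genes had 1 probe. Loess and normexp used limma 3.58.1 in R 4.3.3. The calculation was tested on simulated data. The members, lists and thresholds were chosen with earlier results of these data known. Named genes were the 15 widest, the 8 widest without their time of largest departure, the 5 largest and 5 smallest cycle differences, 3 genes on each side of each limit, and members at neighbouring tags. Gene lists by function had no member, because the gene table (ASM9120v1), which holds the tags of all 155, gives no product. Precision is limited by the number of arrays.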

Additional observations from a re-analysis of the deposited data

How the results depend on the processing

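The number of genes meeting both limits was 155. It was 86 after loess (45 of the 155 among them), 498 with normexp (123 of the 155), 77 with scaling between arrays (56 of the 155), 40 without 8, 46 and 48 h and 29 with loess and without those arrays, a setting added after the data were seen. Leaving out 1 time at a time gave 76 (without 46 h) to 166 (without 6 h). It was 22 by the second highest and second lowest value, 83 with R2 under 0.15, 373 with a range of at least 1.5 and 52 with a range of at least 2.5. With the authors' log2 values it was 148, with series 1 alone 140 and with series 2 alone 156. The largest departure at 8, 46 or 48 h, in 114 genes, was there in 64 after loess and in 28 with scaling between arrays. The lowest value at 46 or 48 h, in 127 genes, was there in 63 and 48. These counts follow the normalisation; the cause was not tested. The count of genes lower in the second cycle, 109, stayed between 93 and 113. No paired analysis was possible because no result comes from a test and the 3 series were treated as readings of 1 sample at each time. One sample per time limits every value.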
